A study of Homo sapiens with 5 samples.

Results

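Of 10 genes of the Eph receptor and ephrin families, 9 had a named probe set on the array and are described here, among 14812 genes measured in all. They are the receptors EPHA2, EPHA3, EPHA4 and EPHB4 and the ligands EFNA2, EFNA4, EFNA5, EFNB1 and EFNB2; the receptor EPHB2, which the annotation does not pair with a probe set, was not analysed. RNA came from 5 clones of the human esophageal carcinoma line TE7. There were 2 control clones, which had received pMIRNA1-puro-control, and 3 CDH26 clones with pMIRNA1-puro-CDH26, which expresses the cadherin CDH26. Each clone was grown from a single cell to confluence and kept in RPMI with 1.8 mM calcium for 24 h, and 1 array was hybridised per clone, so that array error and true variation from clone to clone both enter the spread of a group. The 10 genes were selected on their values in the CDH26 and control clones, so their differences between the groups are given as descriptions with no test.

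Eph receptors are receptor tyrosine kinases whose ligands, the ephrins, are anchored to the surface of neighbouring cells. A-type ephrins hold to the membrane by a lipid anchor and B-type ephrins span it, and each type binds mainly the receptors of the same letter. Binding at a cell contact can signal forward through the receptor and, in reverse, through the ephrin, and the outcome is often repulsion, sorting of cells or a change in adhesion. In epithelia EPHA2 is known to gather at contacts held by E-cadherin.

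Each value is a logarithm with the average of the control clones subtracted, given as log2 although the base is not recorded. These values give differences between clones and no level, so neither the order of these genes by level nor the presence of the markers of an esophageal epithelial cell could be checked. In bulk RNA, fewer cells that express a gene and less RNA per cell cannot be told apart. The targeted gene, CDH26, stood at 2.87, 3.01 and 2.63 in the clones given its construct and within 0.01 of 0 in both controls. In the limma fit, with Benjamini-Hochberg adjustment across all genes, 0 genes passed an adjusted p of 0.05 (0.0%), CDH26 included (adjusted p = 0.25), and 1113 (7.51%) had an unadjusted p under 0.05. A fit with 1 control clone left holds no spread between control clones, so only differences are quoted from it. Of 12 epithelial markers listed, not all of them particular to squamous epithelium, 9 were measured. Their medians were 0.35, 0.48 and 0.50 in CDH26 clones 1 to 3 and 0.16 and −0.16 in control clones 1 and 2. Of the 9, 6 had a higher and 3 a lower mean in the CDH26 clones, down to −0.29. In 5 the lowest CDH26 clone exceeded both controls, against 8.98% of all genes. The list was chosen with earlier results of these data known, so nothing is read from that count. Among the 5 were KRT14, a keratin of basal cells, at 2.72 ± 0.43 (SE), and SFN, 14-3-3 sigma, at 0.63 ± 0.11 (limma, adjusted p = 0.626 for each). KRT19, picked from the fit without control clone 1, was at 0.51 in that fit and at 0.35 with all clones. The part of these markers in the results below was not tested.

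Among the receptors, EPHA3 was far higher and EPHA2 lower in the CDH26 clones, while EPHA4 and EPHB4 overlapped between the groups. Across the ligands, EFNA4 was higher and EFNA2 and EFNB2 were lower in every CDH26 clone than in either control clone, and EFNA5 and EFNB1 had higher means with overlapping clones. Groups that did not overlap were thus seen in 5 of the 9 genes, 2 above and 3 below, against 18.9% of all genes (8.98% above and 9.93% below); since this comparison was used in choosing the genes, nothing is read from that count. The receptors had a median log2 difference of 0.01 and the ligands one of 0.46, beside 0 over all genes. Without control clone 2 the receptor median was −0.26 and the ligand median 0.11, and without control clone 1 they were 0.35 and 0.44.

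**Figure D1:**
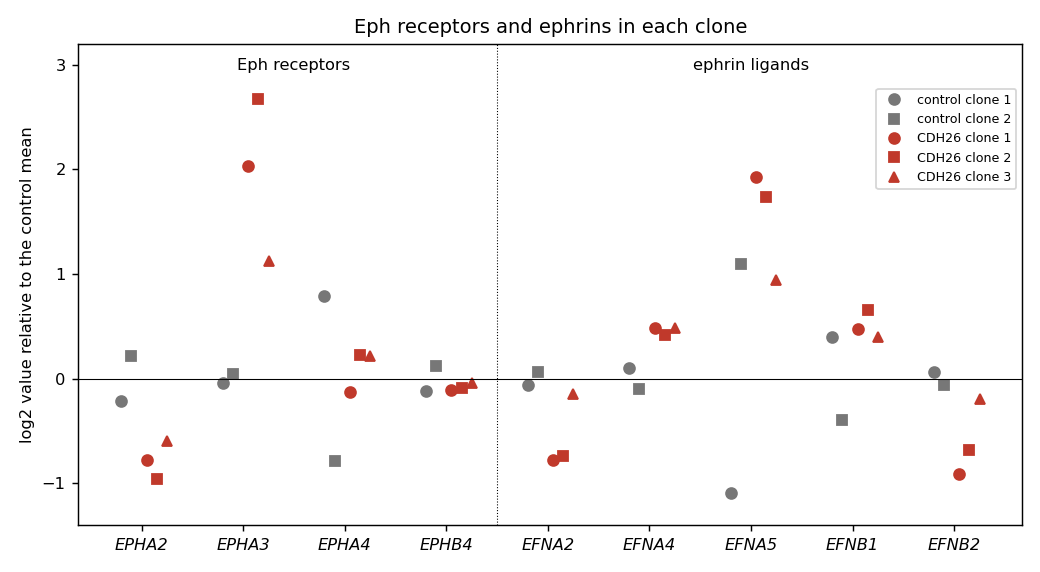
Deposited log2 value of each gene relative to the control mean (vertical axis) in every clone, with control clones in grey, CDH26 clones in red and receptors left of the dotted line. EPHA3 lies at 1.12 or more in the CDH26 clones and within 0.05 of 0 in the controls, while the control clones of EFNA5 and EPHA4 lie at 1.10 and 0.79 on opposite sides of 0.

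EPHA3 is a receptor for A-type ephrins with a high affinity for ephrin-A5. Its value was 2.03 in CDH26 clone 1, 2.68 in clone 2 and 1.12 in clone 3, against −0.05 and 0.05 in control clones 1 and 2. All 3 CDH26 clones were high, the lowest of them 1.07 log2 units above the higher control clone. The difference was 1.94 ± 0.51 (SE), a 3.84-fold higher value if the logarithms are base 2, and ranked 13th by size among the 14812 genes. The spread lay within the CDH26 group: its clones spanned 1.56 log2 units, the 22nd widest range of all genes, while the control clones were 0.09 apart. EPHA3 kept a difference between 1.58 and 2.35 with any clone left out.

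EPHA2, the receptor for ephrin-A1 that is abundant in epithelial cells, went the other way. The CDH26 clones stood at −0.78, −0.96 and −0.60, and control clones 1 and 2 at −0.22 and 0.22. Each CDH26 clone was low, the nearest 0.38 below control clone 1. The difference was −0.78 ± 0.19 (SE), or 1.72-fold, ranked 212th by size, and was smallest in size, at −0.56, without control clone 2. Its CDH26 clones spanned 0.37 log2 units and its control clones were 0.44 apart, both less than the difference between the groups.

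EPHA4, which binds ephrins of both types, was set apart by its control clones. They stood at 0.79 and −0.79, a gap of 1.58 log2 units that was the 50th largest of all genes, where 1.24% of genes had control clones at least 1 log2 unit apart. The CDH26 clones were at −0.12, 0.23 and 0.22, all between the controls. The difference of 0.11 ± 0.54 (SE) was smaller than its error and had no fixed sign: it was 0.90 when control clone 1 was left out and −0.69 when control clone 2 was.

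EPHB4, the receptor of ephrin-B2 known as a marker of veins, varied little. It was at −0.11, −0.09 and −0.04 in the CDH26 clones, within the span of −0.12 to 0.12 of the control clones. The difference of −0.08 ± 0.08 (SE) turned to 0.04 against control clone 1 alone and was −0.20 against control clone 2 alone.

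The 250 bases before the RefSeq start sites (GRCh38.p14) of the receptors with the largest positive and negative difference are printed so that the start regions of EPHA3 and EPHA2 can be compared. Both are read along the gene, 5′ to 3′, from chr3:89107371-89107620 on the plus strand for EPHA3 and chr1:16156070-16156319 on the minus strand for EPHA2. Capitals mark matches on either strand to any of 6 short motifs. These were the core promoter motif TATAAA, the GC box with the letters GGGCGG, the box known as CCAAT, the motif of AP-1 spelled TGANTCA, the motif of TEAD factors spelled GGAATG and the E-box spelled CACCTG. Searched on both strands, none of these motifs overlapped another in the regions printed here.
EPHA3: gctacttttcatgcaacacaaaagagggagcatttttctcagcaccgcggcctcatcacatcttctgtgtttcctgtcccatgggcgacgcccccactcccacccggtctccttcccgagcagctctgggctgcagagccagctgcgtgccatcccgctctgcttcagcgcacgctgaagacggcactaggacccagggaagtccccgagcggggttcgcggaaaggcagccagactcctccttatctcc
EPHA2: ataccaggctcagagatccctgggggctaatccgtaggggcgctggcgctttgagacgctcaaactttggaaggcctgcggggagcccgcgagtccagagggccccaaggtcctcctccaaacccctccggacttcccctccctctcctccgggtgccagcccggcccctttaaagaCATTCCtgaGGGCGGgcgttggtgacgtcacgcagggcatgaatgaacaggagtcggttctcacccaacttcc
EPHA3 had a match to none of the 6, and EPHA2 had 1 GC box and, on the other strand, 1 TEAD motif. Over 35116 start regions of that length in the table, 42.6% held a GC box, 32.0% CCAAT, 17.5% the E-box, 11.9% the TEAD motif, 10.7% TATAAA and 6.57% the AP-1 motif. Each of the 2 regions held 15 CpG dinucleotides, beside a median of 11 in the table. A match is a string of letters and shows no bound factor.

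EFNA5, an A-type ephrin that EPHA3 binds, had the largest difference of the ligands and also the largest spread. It stood at 1.93, 1.73 and 0.94 in CDH26 clones 1 to 3, but at −1.10 in control clone 1 and 1.10 in control clone 2. CDH26 clone 3 thus lay 0.16 below control clone 2, and the groups overlapped. The control clones were 2.20 log2 units apart, the 16th largest gap of all genes. The mean difference of 1.54 ± 0.80 (SE), ranked 25th by size, depended on the control clones: it was 0.44 against control clone 2 alone and 2.63 against control clone 1 alone.

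EFNA4, an A-type ephrin, had the narrowest range among CDH26 clones of the 5 genes whose groups lay apart. It was at 0.48, 0.41 and 0.48 in the CDH26 clones and at 0.10 and −0.10 in the control clones. The CDH26 clones spanned 0.07 log2 units and all exceeded both controls, by at least 0.32. The difference was 0.46 ± 0.07 (SE), or 1.38-fold, and stayed between 0.36 and 0.56 with any clone left out.

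EFNA2, an A-type ephrin, was lower in the CDH26 clones. Its values were −0.78, −0.74 and −0.15 in CDH26 clones 1 to 3 and −0.06 and 0.06 in the control clones. Clones 1 and 2 were low, whereas clone 3 lay 0.09 below control clone 1. The difference was −0.56 ± 0.23 (SE), and −0.76 without CDH26 clone 3.

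EFNB2, the B-type ephrin that binds EPHB4, resembled EFNA2. It stood at −0.91, −0.68 and −0.19 in CDH26 clones 1 to 3 and at 0.06 and −0.06 in control clones 1 and 2. Again clones 1 and 2 were low and clone 3 lay near the controls, 0.13 below control clone 2. The difference of −0.59 ± 0.24 (SE) was −0.79 without CDH26 clone 3 and −0.44 without CDH26 clone 1.

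EFNB1, a B-type ephrin encoded on the X chromosome, had a higher mean that depended on the controls. The CDH26 clones were at 0.47, 0.65 and 0.40, and control clones 1 and 2 at 0.40 and −0.40. Control clone 1 lay level with CDH26 clone 3, at 0.003 above it, so the groups overlapped. The difference of 0.51 ± 0.28 (SE) was 0.11 against control clone 1 alone and 0.91 against control clone 2 alone.

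The start regions of the ligands with the largest positive and negative difference are printed for the same comparison, EFNA5 from chr5:107670938-107671187 and EFNB2 from chr13:106535663-106535912, both on the minus strand, with capitals as above.
EFNA5: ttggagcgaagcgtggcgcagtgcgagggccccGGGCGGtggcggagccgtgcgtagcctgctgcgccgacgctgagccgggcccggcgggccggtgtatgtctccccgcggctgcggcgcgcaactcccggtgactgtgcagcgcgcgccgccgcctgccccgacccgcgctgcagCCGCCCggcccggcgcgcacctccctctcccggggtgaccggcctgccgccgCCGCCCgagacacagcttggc
EFNB2: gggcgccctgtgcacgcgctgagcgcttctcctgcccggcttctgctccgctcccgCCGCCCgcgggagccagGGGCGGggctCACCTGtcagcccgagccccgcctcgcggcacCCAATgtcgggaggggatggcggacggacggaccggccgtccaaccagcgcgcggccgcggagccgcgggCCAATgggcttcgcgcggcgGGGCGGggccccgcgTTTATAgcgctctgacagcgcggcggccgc
EFNA5 held 3 GC boxes and no other match, and EFNB2 held 3 GC boxes, 2 CCAAT motifs, 1 TATAAA on the other strand and 1 E-box. CpG dinucleotides numbered 41 and 40. EFNA4, EFNA2 and EFNB1 held 2, 4 and 1 GC boxes in their regions. Of the 4 printed regions, those of EPHA2, EFNA5 and EFNB2 held a GC box and that of EPHA3 did not.

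**Figure D2:**
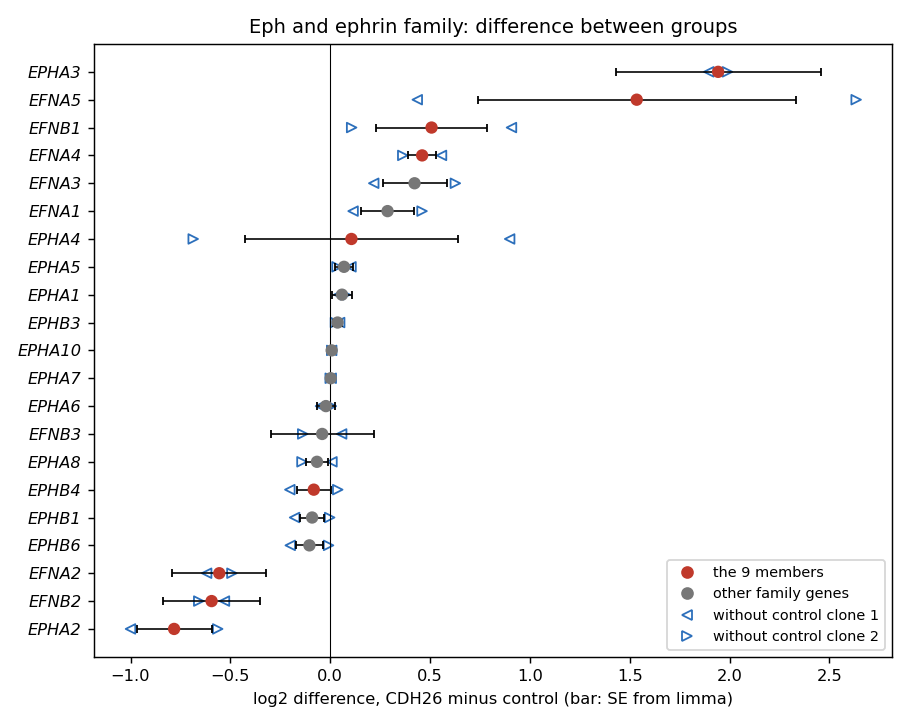
Log2 difference of each measured Eph and ephrin gene (horizontal axis, CDH26 minus control, bars SE from limma), with the genes described above in red and the rest of the family in grey; open triangles give the difference without control clone 1 or 2. EPHA3 is at 1.94 with both triangles beside it, whereas the triangles of EFNA5 lie at 0.44 and 2.63 and those of EPHA4 at 0.90 and −0.69.

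The clones did not depart from the controls alike. In 4 of the 5 genes whose groups did not overlap (EPHA3, EPHA2, EFNA2 and EFNB2) CDH26 clone 3 had the smallest departure of the 3, and EFNA4 was the exception. Over all 2801 genes that did not overlap, clone 3 had the smallest departure in 59.7%. In EPHA3 the order of the CDH26 clones was 2, 1, 3, which was also their order in CDH26 itself. By size of departure EPHA2 had that order too, whereas EFNA2 and EFNB2 had 1, 2, 3 and EFNA4 had 3, 1, 2. The share of all genes with each order was not counted and no correlation was computed, so nothing is read from the order. Without CDH26 clone 3, 7 of the 9 genes did not overlap, against 32.1% of all genes. With either control clone left out the count was 8 of 9, against 52.9% of all genes where control clone 1 was left out and 49.5% where control clone 2 was.

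Receptors and the ligands known to bind them can be set side by side. EPHA3 and EFNA5 both had higher means in the CDH26 clones, and CDH26 clone 3 had the lowest value of the 3 in both; they differed in the control clones, which were 0.09 apart in EPHA3 and 2.20 apart in EFNA5. EPHA2 was lower by 0.78, while its ligand EFNA1, which was not among the 10 genes, had a difference of 0.29 ± 0.13 (SE; limma, adjusted p = 0.626). EFNB2 was lower in clones 1 and 2, and its receptor EPHB4 was within 0.12 of 0 in every clone.

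**Figure D3:**
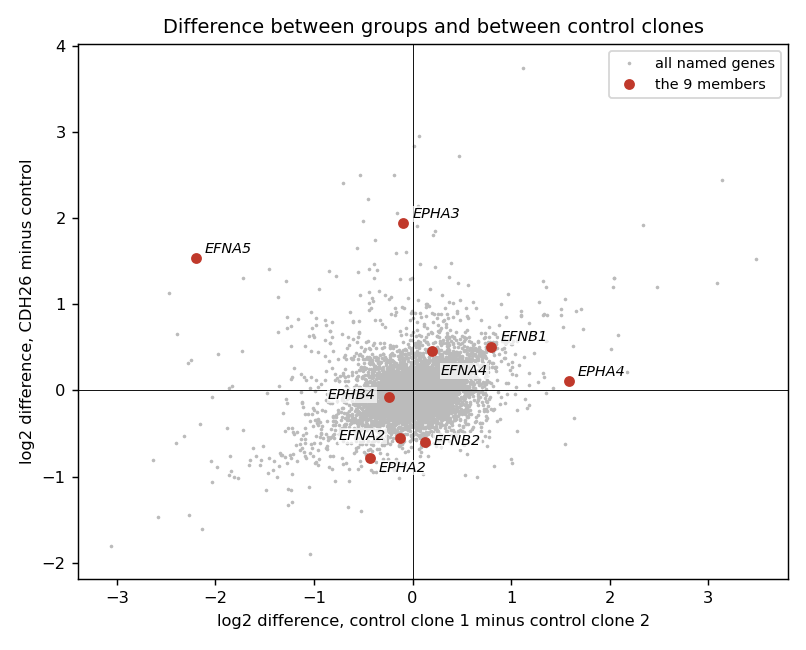
Log2 difference between the groups (vertical axis, CDH26 minus control) against the log2 difference between control clones 1 and 2 (horizontal axis) for all 14812 genes in grey and the 9 genes in red. EPHA3 lies near 0 on the horizontal axis at −0.09, and EFNA5 and EPHA4 lie far from it at −2.20 and 1.58.

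The rest of the family comprised 9 Eph receptors and 3 ephrins, all of them measured. None of the 12 passed the adjusted threshold in limma in either direction, and 0 had an unadjusted p under 0.05, against 7.51% of all genes. The 9 receptors EPHA1, EPHA5, EPHA6, EPHA7, EPHA8, EPHA10, EPHB1, EPHB3 and EPHB6 differed by −0.10 to 0.07, with a median of 0.003. All 9 had the same value on at least 2 arrays (within 1e-05), as did 7955 of the 14812 genes, and none of the 9 genes described above did. The cause of these ties is not recorded. EPHA1 was the 1 receptor of these 9 with all CDH26 clones above both controls, by 0.004.

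The remaining A-type ephrins, EFNA3 and EFNA1, had higher means, as EFNA4 did. EFNA3 was at 0.39, 0.31 and 0.57 in the CDH26 clones and at −0.20 and 0.20 in control clones 1 and 2, so every CDH26 clone was above both controls, by at least 0.11. Its difference was 0.42 ± 0.16 (SE; limma, adjusted p = 0.626), and 0.22 against control clone 2 alone. EFNA1 was at 0.37, 0.32 and 0.17 in the CDH26 clones and at −0.17 and 0.17 in the controls, where control clone 2 lay level with CDH26 clone 3; its difference was 0.11 against control clone 2 alone and 0.46 against control clone 1 alone. In RefSeq (GRCh38.p14) EFNA4, EFNA3 and EFNA1 follow one another on chromosome 1 with no other gene between them, apart from a read-through gene, EFNA4-EFNA3, that covers the former pair and whose transcript the probe sets may also read. Of the 5 A-type ephrins, 4 thus had a higher mean and EFNA2 a lower one; of the 3 B-type ephrins, 1 was higher and 2 lower. EFNB3, a B-type ephrin, overlapped between the groups, at −0.40, −0.07 and 0.35 in CDH26 clones 1 to 3 and at 0.10 and −0.10 in the controls, with a difference of −0.04 ± 0.26 (SE; limma, adjusted p = 0.974).

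Genes that carry the signal forward from the receptor were next compared. Of 47 listed, 33 were measured, and 0 rose and 0 fell at the adjusted threshold in limma, with 3 at an unadjusted p under 0.05, against 7.51% of all genes. Their median difference was −0.002, and in 12 the groups did not overlap, 8 above and 4 below, against 8.98% and 9.93% of all genes; this share was not tested. The adaptor GIT1 differed by −0.28 ± 0.07 (SE), the exchange factor NGEF, an ephexin that binds EPHA4, by 0.12 ± 0.03 and the adaptor CRKL by 0.13 ± 0.04 (limma, adjusted p = 0.626 for each); CRKL was at 0.08 against control clone 1 alone.

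For reverse signalling through ephrins 12 of 17 listed genes were measured, with a median of 0.09 and 0 past the adjusted threshold in limma in either direction; 1 had an unadjusted p under 0.05. That gene was GRIP1, a PDZ scaffold that binds the tail of B-type ephrins. GRIP1 was at 0.87, 1.31 and 0.49 in CDH26 clones 1 to 3 and at −0.11 and 0.11 in the controls, a difference of 0.89 ± 0.28 (SE; limma, adjusted p = 0.626). All CDH26 clones were high. The exchange factor TIAM1, at 0.26 ± 0.15, and the scaffold CNKSR1, at 0.09 ± 0.06, overlapped between the groups. SDCBP, a syndecan-binding scaffold picked from the fit without control clone 1, was at 0.24 in that fit and at 0.11 with all clones. TIAM1 was at 0.04 against control clone 1 alone and at 0.47 against control clone 2 alone.

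Of 15 listed proteases and phosphatases that cut or switch off Eph receptors and ephrins, 7 were measured, with a median of 0.09, 0 past the adjusted threshold in limma and 1 at an unadjusted p under 0.05. Most of the 7 were subunits of gamma-secretase, which cuts the stubs of shed B-type ephrins, and so were the 3 with the smallest p. APH1A was at 0.39, 0.39 and 0.22 in the CDH26 clones and at 0.10 and −0.10 in the controls, and PSENEN differed by 0.16 ± 0.07 (SE), or by 0.09 against control clone 2 alone. PSEN2 differed the other way, by −0.55 ± 0.21, or by −0.28 against control clone 1 alone and −0.82 against control clone 2 alone. These 3, named for their p, did not overlap between the groups (limma, adjusted p = 0.626 for each), as was so for 18.9% of all genes, whereas the other measured subunits, NCSTN at 0.51 and APH1B at −0.16, overlapped.

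Other receptor kinases and other guidance receptors were set beside the Eph family. Of 44 other receptor tyrosine kinases listed 35 were measured, with a median of −0.02, a range of −0.76 to 0.49 and 0 past the adjusted threshold in limma; 3 had an unadjusted p under 0.05, a share near the 7.51% of all genes. They were ERBB4, a neuregulin receptor, at 0.42 ± 0.11 (SE), ALK at 0.12 ± 0.04 and TYRO3 at −0.33 ± 0.11, or −0.20 against control clone 1 alone (limma, adjusted p = 0.626 for each). FGFR3, MERTK and ROR1 were picked from the fit without control clone 1, after their values were seen, so nothing is read from their differences in it. Against control clone 2 alone they were at 0.95, −0.33 and −1.69, and with all clones at 0.49, −0.13 and −0.76. In the fit of all clones no kinase of that list reached a difference of 1 log2 unit. Over all genes 0.506% were higher and 0.142% lower by as much. EPHA3 exceeded it but was selected on values of this contrast, so nothing is read from that. Of 31 semaphorins, plexins and neuropilins 11 were measured, with a median of −0.02 and 0 past the adjusted threshold in limma. The plexin PLXNB3 differed by 0.26 ± 0.06 (SE) at an unadjusted p under 0.05, and PLXNA1 and PLXNA2, at −0.46 ± 0.21 and −0.21 ± 0.12, overlapped between the groups (limma, adjusted p = 0.626 for each). Against control clone 2 alone PLXNA1 was at −0.26, and against control clone 1 alone PLXNA2 was at −0.09.

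**Figure D4:**
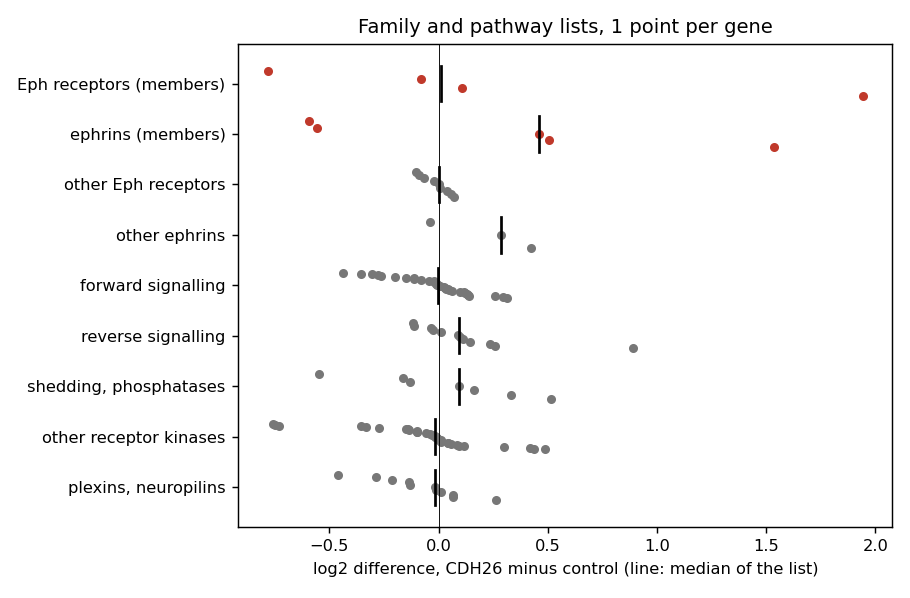
Log2 difference (horizontal axis, CDH26 minus control) of every measured gene in each list, 1 point per gene, with a black line at the median of the list and the 9 genes in red. EPHA3 at 1.94 and EFNA5 at 1.54 lie beyond the highest gene of the other lists plotted, GRIP1 at 0.89 (marker lists are not shown). The 9 genes were selected on values of this contrast, so nothing is read from that. EFNA5 is at 0.44 against control clone 2 alone.

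The genes whose 5 clone values lay nearest to those of EPHA3 and EFNA5, by Euclidean distance in log2 units over all named genes, were different for the pair. Nearest to EPHA3 were EYA1, a transcriptional regulator, at a distance of 0.43, the collagen cross-linking enzyme LOX at 0.61 and the EGF receptor ligand EREG at 0.67. EYA1 stood at 2.18, 2.36 and 1.01 in the CDH26 clones and at 0.11 and −0.11 in the controls. Nearest to EFNA5 were STEAP4, a metalloreductase, at 0.56, the interferon-induced IFIT3 at 0.65 and the actin-bundling protein LCP1 at 0.77. STEAP4 shared the wide gap between control clones, at −0.86 and 0.86, and was at 1.54, 1.63 and 0.75 in the CDH26 clones.

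Markers of other cell types were measured only in part, as the annotation names probe sets for some of them. Of 12 mesenchymal markers 6 were measured, with a median of −0.005, VIM (vimentin) at 0.06 ± 0.06 (SE) and SNAI2 at −0.07 ± 0.04. Of 8 endothelial markers 4 were measured, with a median of −0.01, ESAM at −0.26 ± 0.15 and VWF at 0.01 ± 0.08; ESAM was at −0.03 against control clone 1 alone and at −0.49 against control clone 2 alone. Of 8 leukocyte markers 3 were measured. The lysosomal protein CD68 was at 1.07 ± 0.33 with every CDH26 clone above both controls, while the monocyte receptor CD14 was at −0.04 ± 0.04. No marker of these 3 lists passed the adjusted threshold in limma, and 1, CD68, had an unadjusted p under 0.05.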

How the data were processed

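RNA of 5 TE7 clones was hybridised to Affymetrix Gene 2.0 ST arrays. The submitters' processing notes name Affymetrix Expression Console. Its version and summarisation method, and the genome build, are not stated in the sources used here. The authors' deposited table holds log values, taken as log2, of 44607 probe sets. The control columns summed to 0 in every row (within 1e-06), so each probe set was centred on the control mean, and the median of each array was 0. The log base and any normalization between arrays stay unknown. The array annotation named 15835 probe sets with 1 gene, 0 with several, and left 28772 unnamed. Probe sets were averaged per gene (651 of 14812 genes had more than 1; each gene of the Eph and ephrin families had 1). No filter on dim genes was possible.

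Groups came from the labels and were set against each other in limma 3.58.1 under R 4.3.3 (lmFit, eBayes, group only, two-sided, Benjamini-Hochberg over all genes, threshold 0.05), tested on simulated data. SE are limma's moderated errors. An exact permutation of 2 against 3 clones cannot go below 0.1, so none was run. The genes and lists were chosen with earlier results of these data known. Named were all measured family genes, CDH26, the 3 genes of each pathway list (2 of each marker list) with the smallest unadjusted p, and the 3 nearest patterns to the receptor and the ligand with the largest difference. APH1B, NCSTN, KRT19, SDCBP, FGFR3, MERTK and ROR1 were named after their values were seen. Alternatives were each clone left out, the widest probe set, mean-centred arrays, natural logarithms, a replicate block, trend and robust variance, array weights, a threshold of 0.1 and genes without ties. Start regions are RefSeq's (GRCh38.p14). Figures were drawn with matplotlib 3.10.9.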

Additional observations from a re-analysis of the deposited data

How the results depend on the processing

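The 5 arrays, above all the 2 control clones, limit every value. With each clone left out in turn, the receptor median ranged from −0.26 to 0.35 and the ligand median from 0.11 to 0.45. The number of genes not overlapping between groups ranged from 5 to 8 of 9, against 23.4% to 52.9% of all genes. Both the count and the share were highest with a control clone left out. The 186 genes past the adjusted threshold came without control clone 1. With either control clone left out, the spread comes wholly from the CDH26 group. Leaving out control clone 2 gave the same design, yet no gene passed there. The cause of this contrast was not tested, so nothing is read from the 186. The limma count was 1 (CDH26) among genes without tied values and 0 under the other alternatives that kept all clones. If the deposited values are natural logarithms, the ligand median is 0.66 and EPHA3 differs by 2.80 log2 units. Of 81 alternative values of the 9 genes, 79 kept their sign and 2 did not: without control clone 2, EPHA4 was at −0.69 and EPHB4 at 0.04. Many of the 81 could not change sign, so the count of 79 is no measure of stability. Natural logarithms only rescaled each difference, mean-centred arrays hardly moved it, and the replicate block repeated the values without CDH26 clone 3. The widest probe set changed no value of these genes, each having 1.

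Clone numbers were not taken to pair the clones. Deviations from the group means correlated at −0.20 over genes for control clone 1 with CDH26 clone 1 and at −0.21 for the clones numbered 2. With only 2 controls, the deviations of 1 mirror those of the other, so these values cannot exclude a pairing. With the number as a replicate block, 0 genes passed, the receptor median was −0.03 and the ligand median 0.45, and the differences equal those without CDH26 clone 3, which has no partner.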
